A study of Mus musculus with 6 samples.

Results

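The RNA of 37 genes that mark microglia and border macrophages was compared between the cerebella of mice fed a low-Mn and a normal-Mn diet. The list holds 32 microglial genes and 5 macrophage genes, Mrc1, Cd163, F13a1, Pf4 and Lyz2, and was chosen by symbol (GENCODE M21), with earlier results of these data known. All 37 were present among the 53715 mouse genes of the count table, and all 37 passed the filter on low counts, which left 16123 genes for testing. Wild-type male C57BL/6 mice, 4 weeks old at purchase and described as adult in the labels, were first kept on a purified diet with 35 ppm Mn. For 14 days, 3 mice then received a diet specified at less than 0.01 ppm Mn (0 ppm in the labels), and 3 mice a diet specified at 35 ppm Mn. These are nominal contents, and by the study's methods the measured content of either diet could lie somewhat higher. Polyadenylated RNA of 1 whole cerebellum per mouse was sequenced, with no sorting of cells, so that each value is an average over neurons, glia, vessels and attached membranes. The sources used here do not say whether blood was flushed from the vessels. Library totals ran from 14548336 to 21277469 expected counts, and the 3 low-Mn libraries were the shallower ones. The count table marks the low-Mn columns by a replicate number alone, and they were assigned to the low-Mn mice because each normal-Mn mouse has a column with its own name.

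Microglia are the resident macrophages of the brain tissue itself. They settle in the brain before birth, renew themselves there, and depend for survival on the receptor CSF1R and its ligands CSF1 and IL-34. The transcription factors PU.1 (encoded by Spi1) and IRF8 establish the lineage, while SALL1 and TGF-β signaling maintain the state of resting microglia, with its purinergic receptors, fractalkine receptor and complement C1q. Border macrophages are a related population of the meninges, the perivascular spaces and the choroid plexus, marked by the mannose receptor Mrc1 and the hemoglobin scavenger receptor Cd163.

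Because PU.1 binds the sequence GAGGAAGT or close variants of it, the promoters of the genes were read from RefSeq (GRCm38.p6), as the 250 bases before and the first 50 bases after a transcription start. The table held promoters for 29 of the 37 genes. GAGGAAGT occurred on either strand in promoters of 6 of them (20.7%), C1qc, Cd53, Ctss, F13a1, Inpp5d and Pf4, and in 3.69% of all 27025 genes with a promoter. The shorter strings within it were found more often, GAGGAAG in 14 genes (48.3%, against 15.4% of all genes) and AGGAAGT in 13 (44.8%, against 10.7%). Of the composite elements for an ETS factor such as PU.1 beside an IRF factor, the ETS-IRF element occurred in 1 gene, Cd68, against 3.16% of all genes. These matches overlap each other where the strings share letters, and they describe sequence, not binding. Of the promoters shown here, the first 3 hold GAGGAAGT on the opposite strand, in capitals, beginning at -195 in C1qc, -2 in Ctss and 6 in Cd53, counted from 0 at the start site. That of Cx3cr1 is shown beside them because it has no match in this window and because its diets did not overlap in the libraries. They lie at chr4:136892865-136893164 (minus strand), chr3:95526536-95526835 (plus), chr3:106790100-106790399 (minus) and chr9:120068247-120068546 (minus).
C1qc: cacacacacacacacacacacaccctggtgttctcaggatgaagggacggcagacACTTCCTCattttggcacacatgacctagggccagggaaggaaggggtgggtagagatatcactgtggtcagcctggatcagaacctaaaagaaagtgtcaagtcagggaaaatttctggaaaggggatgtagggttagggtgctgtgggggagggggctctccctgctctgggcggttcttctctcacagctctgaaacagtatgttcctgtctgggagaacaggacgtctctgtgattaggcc
Ctss: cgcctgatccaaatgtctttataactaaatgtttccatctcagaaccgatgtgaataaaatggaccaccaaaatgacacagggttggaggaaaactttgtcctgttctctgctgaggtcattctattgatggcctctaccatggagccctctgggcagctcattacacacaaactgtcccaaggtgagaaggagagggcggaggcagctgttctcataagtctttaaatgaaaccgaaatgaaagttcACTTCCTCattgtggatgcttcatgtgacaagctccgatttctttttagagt
Cd53: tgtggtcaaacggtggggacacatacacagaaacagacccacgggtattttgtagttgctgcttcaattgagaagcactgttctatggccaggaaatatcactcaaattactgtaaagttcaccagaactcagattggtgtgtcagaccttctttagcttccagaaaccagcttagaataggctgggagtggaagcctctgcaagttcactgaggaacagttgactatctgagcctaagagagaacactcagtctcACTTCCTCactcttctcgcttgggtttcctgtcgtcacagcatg
Cx3cr1: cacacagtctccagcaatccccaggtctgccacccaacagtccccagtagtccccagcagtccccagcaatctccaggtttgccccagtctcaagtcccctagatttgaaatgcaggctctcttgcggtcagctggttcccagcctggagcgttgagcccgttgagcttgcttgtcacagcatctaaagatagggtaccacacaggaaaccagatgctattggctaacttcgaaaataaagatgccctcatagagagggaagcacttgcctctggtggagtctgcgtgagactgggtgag

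None of the 37 genes passed the test of the diets over all genes. The test was the quasi-likelihood test of edgeR, with p adjusted after Benjamini and Hochberg and a threshold of 0.05. Of all 16123 genes 96 passed (0.595%), 29 lower on the low-Mn diet (0.18%) and 67 higher (0.416%), while the smallest adjusted p among the 37 was 0.201, that of Csf1r. At an unadjusted p under 0.05 there were 4 of the 37 (10.8%), Csf1r, Sall1, Tmem119 and Cx3cr1, each lower on the low-Mn diet, against 5.58% of all genes lower and 6.54% higher. The log2 fold change (negative where low-Mn was lower) was below 0 in 29 of the 37 genes (78.4%) and in 50.8% of all genes, with a median of -0.16 over the 37 and -0.0025 over all genes. Every low-Mn mouse lay below every normal-Mn mouse in 5 genes (13.5%), Csf1r, Sall1, Cx3cr1, Tmem119 and Fcrls, against 8.34% of all genes. No member had all low-Mn mice above all normal-Mn mice, against 8.76% of all genes. Among the 9363 genes within the members' range of mean CPM, 52.7% were below 0, with a median of -0.01, and 7.60% had every low-Mn mouse below every normal-Mn mouse. Neither DESeq2 nor limma-voom called any of the 37, each with 4 at an unadjusted p under 0.05, and DESeq2 with its default filter gave an adjusted p to Csf1r only. In bulk tissue, fewer cells of a type and less RNA per cell cannot be told apart.

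The CPM of the 37 genes (counts scaled to library size with TMM factors) added up to 257.3, 258.9 and 262.9 in the low-Mn mice, in the order of their replicate numbers, and to 279.9, 292.7 and 293.5 in the normal-Mn mice. The sums did not overlap between diets, and they are given as a description without a test. By the median gene, as the difference in log2(CPM + 0.5) from the mean of the normal-Mn mice, the low-Mn libraries stood at -0.14, -0.14 and -0.10 and the normal-Mn libraries at -0.05, 0.02 and 0.03. Oligodendrocyte markers, which are no part of the list, also lay lower in every low-Mn mouse, with a summed CPM of 6984 to 7266 against 7467 to 8278. Their median log2 fold change was -0.14. Of these 12 markers 2 passed, both lower, among them the connexin Gjc3, whose log2 fold change was -0.24 (edgeR, adjusted p = 0.0403). The medians of 12 astrocyte, 12 endothelial, 12 granule neuron and 12 Purkinje neuron genes were -0.04, -0.0010, 0.0073 and 0.01, with none passing, and that of 7 red blood cell genes was 0.18. The summed CPM of the astrocyte genes did not overlap between diets either, at 3921 to 4054 in low-Mn and 4106 to 4243 in normal-Mn mice. The sums of the endothelial, granule neuron, Purkinje neuron and red blood cell genes overlapped. The part of these cell types in the values of the 37 genes was not tested. The plot of the genes by library shows that for most single genes the mice of both diets were interleaved.

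**Figure D1:**
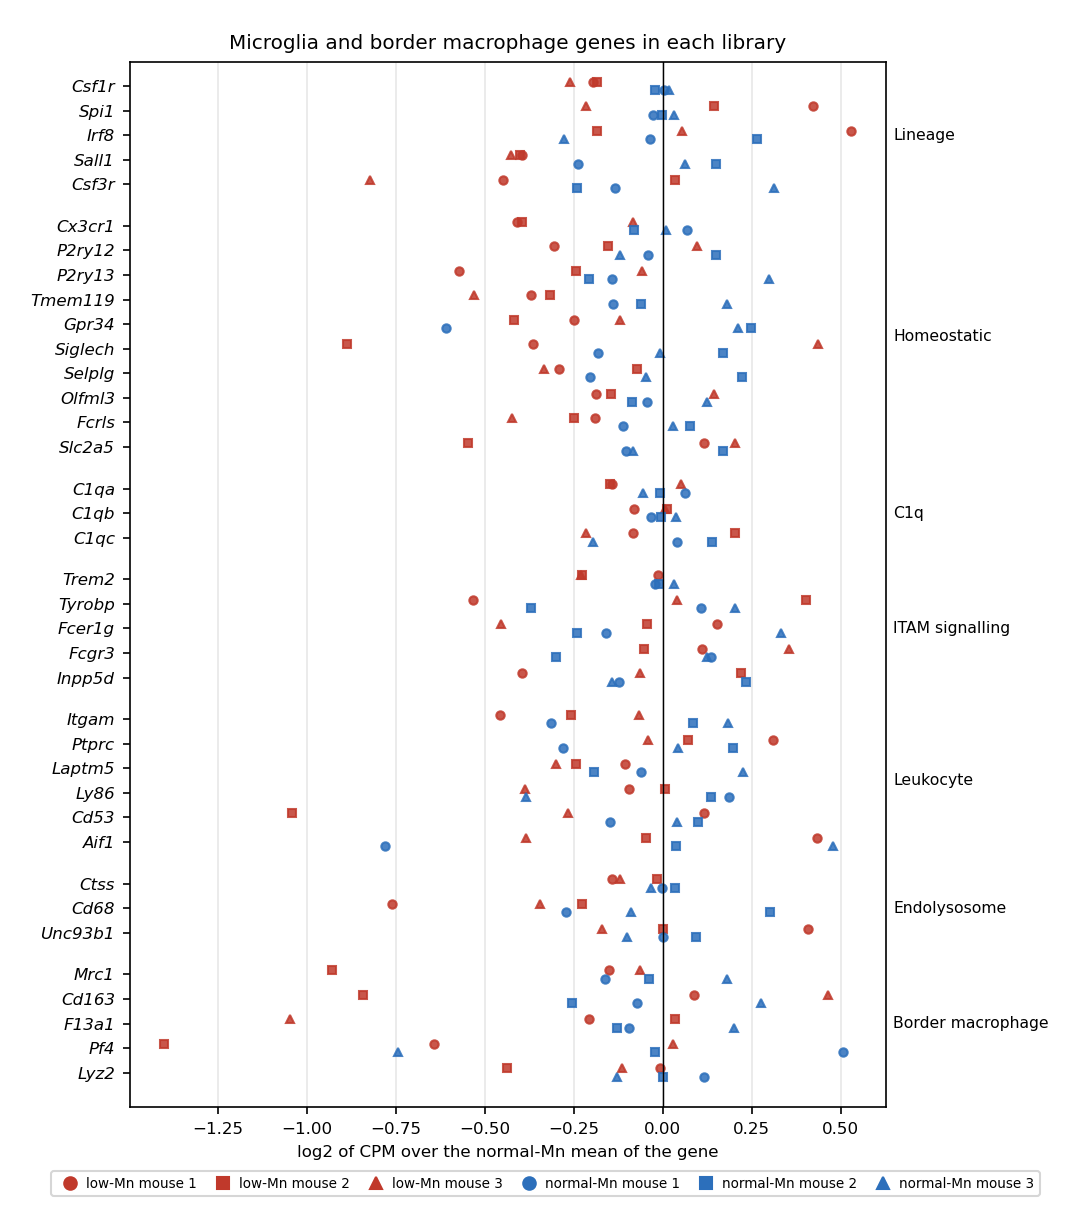
Each point is 1 library, as log2 of its CPM over the normal-Mn mean of the gene, for low-Mn (red) and normal-Mn (blue) mice, with 1 shape per replicate number and the genes grouped by role. In Csf1r, Sall1, Cx3cr1, Tmem119 and Fcrls all 3 red points lie to the left of all 3 blue points, while C1qb lies close to 0 in all 6 libraries.

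Of the genes of lineage and survival, the growth factor receptor Csf1r (ENSMUSG00000024621) was the best measured. Its CPM was 30.6, 30.8 and 29.2 in the low-Mn mice and 35.1, 34.5 and 35.4 in the normal-Mn mice, here and in what follows in the order of the replicate numbers. The diets did not overlap, and the replicates of each diet lay close together (30.2 ± 0.856 against 35.0 ± 0.486, SD, n = 3 mice each), with the low-Mn mean at 86.2% of the normal-Mn mean. The log2 fold change was -0.21 (standard error 0.0701, 95% interval -0.36 to -0.07, adjusted p = 0.201 from edgeR). Over 15.1% of its exons Csf1r overlaps Hmgxb3 on the opposite strand, and its reads may not be told apart from those of that gene, since the labels name a directional library kit, the study's methods a kit not called directional, and neither says whether counting used strand. Hmgxb3 itself had a mean CPM of 37.4 in low-Mn and 38.5 in normal-Mn mice, and its log2 fold change was -0.04 (adjusted p = 0.868 by edgeR).

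Sall1, the repressor that maintains microglial identity (chromosome 8, 89027235 to 89044162), had a CPM of 8.14, 8.11 and 7.96 in the low-Mn mice and 9.08, 11.9 and 11.2 in the normal-Mn mice. The 3 low-Mn values were almost equal, and all were below the lowest normal-Mn value, which was that of replicate 1. Its log2 fold change was -0.41 (standard error 0.138, 95% interval -0.69 to -0.12, adjusted p = 0.217 from edgeR). The factors of the lineage itself went the other way in value, Spi1 with a log2 fold change of 0.14 (standard error 0.335) and Irf8 with 0.17 (standard error 0.272), and both diets overlapped in each. Both factors had few counts, with a mean CPM of 1.58 and 1.43 for Spi1 and 2.80 and 2.50 for Irf8 on the low-Mn and the normal-Mn diet. Without low-Mn replicate 1, the highest library for either gene, the log2 fold changes became -0.03 and -0.06. Csf3r, the G-CSF receptor that neutrophils also make, had a mean CPM of 1.35 in low-Mn and 1.74 in normal-Mn mice, with overlap. Beside it, 12 marker genes of blood neutrophils and monocytes added up to a CPM of 3.25 to 4.33 in the low-Mn and 4.82 to 7.47 in the normal-Mn libraries, without overlap. Only 2 of the 12 passed the filter on low counts, S100a9 at a log2 fold change of -1.63 and Mmp9 at -0.27, neither passing the test (adjusted p = 0.212 and 0.786 from edgeR). Their part in the values of Csf3r was not tested.

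All 10 genes of the resting microglial surface had log2 fold changes below 0, from -0.40 to -0.03 with a median of -0.24, and none passed. In 3 of the 10 the sign turned when 1 library was left out, Siglech to 0.086 and Slc2a5 to 0.16 without low-Mn replicate 2 and Olfml3 to 0.011 without low-Mn replicate 1. Tmem119, a membrane protein of resting microglia (chromosome 5, 113793729 to 113800516), had a CPM of 7.03, 7.28 and 6.29 in low-Mn mice and 8.24, 8.71 and 10.3 in normal-Mn mice. All low-Mn mice lay below all normal-Mn mice, with a log2 fold change of -0.40 (standard error 0.148, 95% interval -0.71 to -0.09, adjusted p = 0.262 from edgeR). Cx3cr1, the receptor for the neuronal chemokine fractalkine (chromosome 9, 119901616 to 120069879), had 13.1, 13.3 and 16.5 against 18.3, 16.5 and 17.6. Low-Mn replicate 3 and normal-Mn replicate 2 were nearly equal, so that the gap between the diets was smaller than the spread within either. The log2 fold change was -0.29 (standard error 0.111, 95% interval -0.52 to -0.06, adjusted p = 0.287 from edgeR).

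Fcrls, a scavenger receptor of the Fc receptor-like family, had a CPM of 5.58, 5.36 and 4.75 in low-Mn and 5.90, 6.71 and 6.503 in normal-Mn mice. The diets were thus apart in this gene, although its log2 fold change of -0.28 had a standard error of 0.169 (adjusted p = 0.531 from edgeR). Selplg, the P-selectin ligand, lies beside Tmem119 on chromosome 5 (113818536 to 113832644) and had a CPM of 8.37, 9.76 and 8.14 against 8.89, 11.9 and 9.92. Its diets overlapped, with a log2 fold change of -0.23 (edgeR, adjusted p = 0.552). P2ry12, the ADP receptor that guides microglial processes, had 8.54, 9.48 and 11.3 on the low-Mn and 10.2, 11.7 and 9.70 on the normal-Mn diet. In this gene the mice were interleaved, and the interval of the log2 fold change reached from -0.40 to 0.17 around -0.11. Its neighbour P2ry13, a related ADP receptor, had a log2 fold change of -0.27, Gpr34, a lysophospholipid receptor, -0.25, and Siglech, a sialic acid-binding lectin, -0.16. Olfml3, a secreted matrix protein, had -0.05 and Slc2a5, a fructose transporter, -0.03. The low-Mn CPM of Siglech ran from 2.27 in replicate 2 to 5.67 in replicate 3, a range that enclosed all 3 normal-Mn values.

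**Figure D2:**
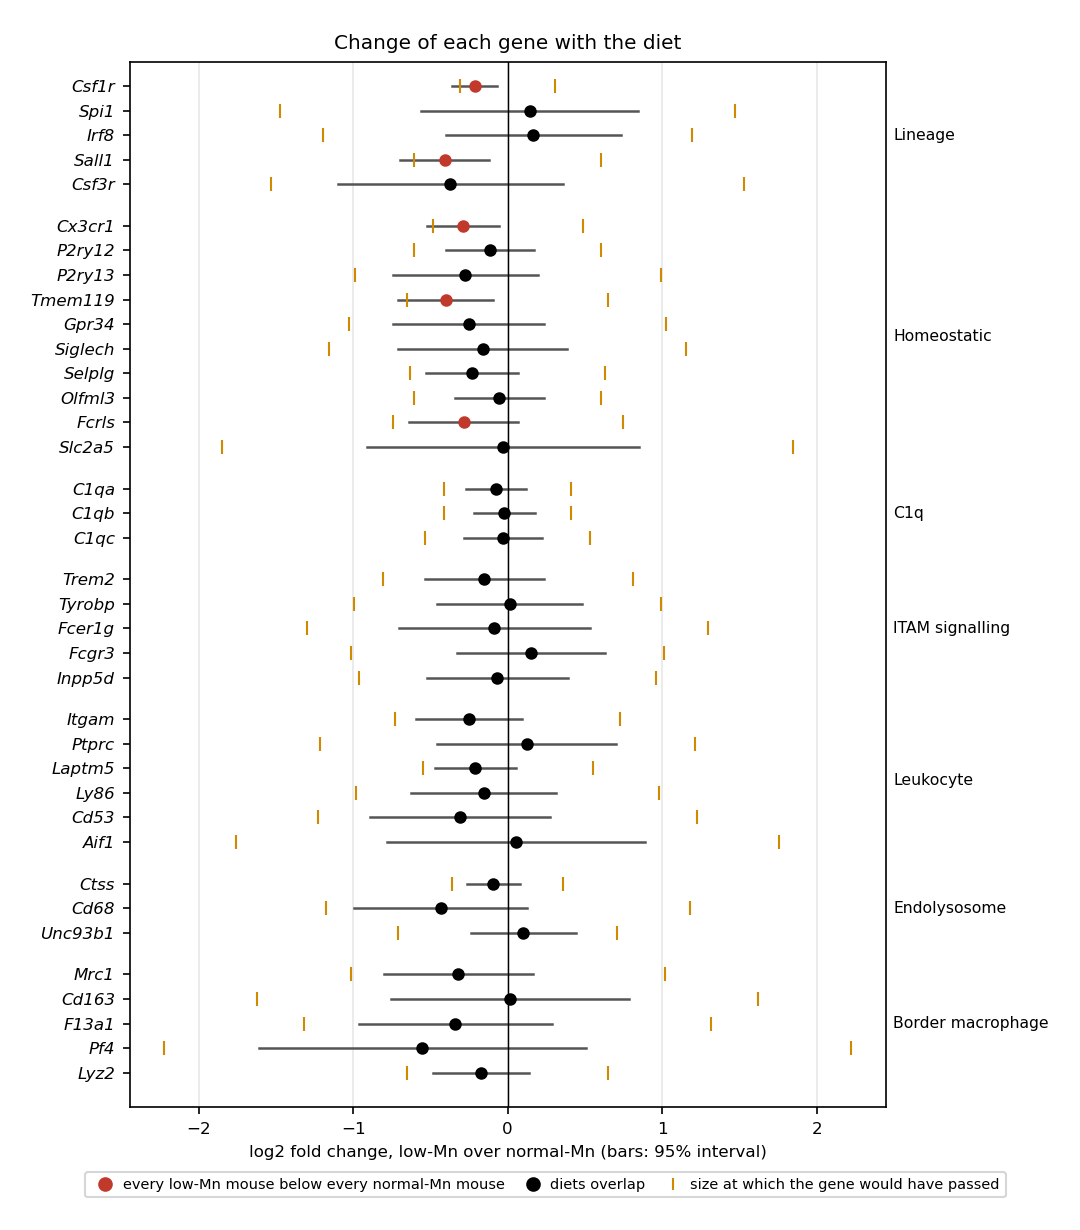
Points are log2 fold changes of low-Mn over normal-Mn for the 37 genes and bars their 95% intervals, in red where the diets did not overlap and otherwise in black. Orange ticks give the size at which a gene with that standard error would have passed. No point reaches its tick, as must hold where no gene passed. The intervals of Csf1r, Sall1, Tmem119 and Cx3cr1 exclude 0 before adjustment.

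The 3 chains of complement C1q, the protein that opens the classical complement pathway and is made in the brain mainly by microglia, were each measured with more than 200 counts in every library. Their genes lie side by side on chromosome 4 (136880129 to 136898803) in the order C1qb, C1qc and C1qa. C1qa had a CPM of 18.8, 18.8 and 21.5 in low-Mn and 21.7, 20.7 and 20.0 in normal-Mn mice. C1qb had 17.03, 18.1 and 18.1 against 17.6, 17.9 and 18.5, and C1qc 14.6, 17.9 and 13.4 against 16.0, 17.1 and 13.5. In each chain the diets overlapped. The log2 fold changes were -0.08 for C1qa, -0.02 for C1qb and -0.03 for C1qc, with 95% intervals from -0.27 to 0.12, -0.22 to 0.17 and -0.28 to 0.23 (adjusted p = 0.805, 0.958 and 0.958 from edgeR).

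Since the C1q chains come largely from the same cells, other microglial genes were also set against them within each library, a ratio chosen after the values had been seen and given without a test. The ratio of Csf1r to the sum of the 3 chains, in CPM, was 0.605, 0.562 and 0.551 in the low-Mn and 0.635, 0.619 and 0.681 in the normal-Mn mice, without overlap. For Tmem119 it was 0.139, 0.133 and 0.119 against 0.149, 0.156 and 0.198, again without overlap. For Cx3cr1 it was 0.260, 0.242 and 0.311 against 0.331, 0.297 and 0.338, and for the 10 surface genes together 1.23, 1.16 and 1.37 against 1.31, 1.42 and 1.53, both with overlap. The difference between the fold changes of these genes and those of C1q was not tested.

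Receptors that signal through an immunoreceptor tyrosine-based activation motif (ITAM) showed no common direction. Trem2, the lipid-sensing receptor of microglia, had a CPM of 4.94, 4.26 and 4.26 in low-Mn and 4.91, 4.95 and 5.09 in normal-Mn mice, with low-Mn replicate 1 among the normal-Mn values (log2 fold change -0.15, standard error 0.184, adjusted p = 0.810 from edgeR). Tyrobp, the ITAM adaptor that TREM2 needs, had 3.49, 6.67 and 5.18 against 5.43, 3.90 and 5.80. The lowest and the highest of the 6 values were both low-Mn mice, and the log2 fold change was 0.01 (standard error 0.226, adjusted p = 0.988 from edgeR). Fcer1g, the other ITAM adaptor, had a log2 fold change of -0.09, the IgG receptor Fcgr3 0.15 and Inpp5d, the lipid phosphatase SHIP1 that damps these signals, -0.07, all 3 with standard errors above 0.2.

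Among genes shared by most leukocytes, 4 of 6 were below 0 and none passed. Laptm5, a lysosomal membrane protein of blood-derived cells, had a CPM of 12.8, 11.7 and 11.2 in low-Mn and 13.2, 12.1 and 16.1 in normal-Mn mice, with low-Mn replicate 1 above normal-Mn replicate 2 (log2 fold change -0.21, adjusted p = 0.531 from edgeR). Itgam, the integrin CD11b, had a log2 fold change of -0.25, the tetraspanin Cd53 -0.31 and Ly86, a partner of an endotoxin-related receptor, -0.16. Without low-Mn replicate 2 Cd53 stood at -0.06, and without normal-Mn replicate 3 Laptm5 stood at -0.09. Aif1, the actin-binding protein IBA1 by which microglia are stained, had 0.06 and Ptprc, the phosphatase CD45, 0.12. For Aif1 and Ptprc the sign turned without normal-Mn replicate 1, to -0.22 and -0.0012, and for Aif1 also without low-Mn replicate 1, to -0.20. Itgam shares 66.3% of its sequence with the overlapping entry Gm49368, which had 0 counts in every library. Lyz2 shares 15.4% with Lyz1, which was near 0, Csf3r 10.7% with AC105061.2 and Fcgr3 9.58% with Fcgr2b. Fcgr2b had a mean CPM of 1.51 in low-Mn and 2.25 in normal-Mn mice. Its log2 fold change was -0.58 (adjusted p = 0.454 from edgeR). Of the endolysosomal genes, Ctss, the protease cathepsin S, had 22.7, 24.7 and 23.0 against 25.0, 25.6 and 24.4, overlapping only through low-Mn replicate 2 and normal-Mn replicate 3 (log2 fold change -0.09, 95% interval -0.27 to 0.08, adjusted p = 0.710 from edgeR). Cd68, a lysosomal glycoprotein that phagocytes raise, had 1.80, 2.61 and 2.41 against 2.53, 3.76 and 2.87. Its log2 fold change of -0.43 was the lowest of the microglial genes, with a standard error of 0.268 (adjusted p = 0.552 from edgeR). Unc93b1, which carries Toll-like receptors to endosomes, had 0.10.

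The 5 macrophage genes had a median log2 fold change of -0.32, and none passed. Mrc1, the mannose receptor of border macrophages, had a CPM of 4.01, 2.34 and 4.26 in low-Mn and 3.98, 4.33 and 5.04 in normal-Mn mice (log2 fold change -0.32, standard error 0.231, adjusted p = 0.635 from edgeR). Cd163 had 1.57, 0.825 and 2.04 against 1.40, 1.24 and 1.79 (log2 fold change 0.02, standard error 0.369). Lyz2, the lysozyme of macrophages, monocytes and neutrophils, had 8.89, 6.60 and 8.26 against 9.69, 8.95 and 8.18 (-0.17, standard error 0.148). In these 3 genes low-Mn replicate 2 was the lowest of the 6 libraries, and the other low-Mn mice lay among or above the normal-Mn mice. F13a1, the A chain of coagulation factor XIII, had 2.21, 2.61 and 1.23 against 2.39, 2.33 and 2.93 (-0.34, standard error 0.300), with low-Mn replicate 3 the lowest. Pf4, a chemokine of platelets and border macrophages, had 0.465, 0.275 and 0.740 against 1.03, 0.714 and 0.434, from 4 to 22 counts per library, and its fold change of -0.55 had a standard error of 0.507. Single libraries moved these values: without low-Mn replicate 2 the log2 fold change was -0.10 for Mrc1 and -0.06 for Lyz2, without low-Mn replicate 3 it was -0.08 for F13a1, and without normal-Mn replicate 1 it was -0.21 for Pf4.

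Border macrophages sit in the meninges and the choroid plexus, whose own markers also differed between these libraries. By the median gene, the macrophage genes stood at -0.13, -0.57 and -0.05 in the low-Mn mice on the log2 scale used above, and at -0.04, -0.03 and 0.17 in the normal-Mn mice. For 12 meningeal fibroblast genes the low-Mn values were -0.11, -0.39 and -0.21 and the normal-Mn values -0.01, 0.02 and -0.01. Their summed CPM was 440 to 501 in the low-Mn and 526 to 594 in the normal-Mn libraries, with none of the 12 at 0, and 2 of 12 passed the test, the matrix protein Fn1 at a log2 fold change of -0.41 and the growth factor Igf2 at -0.26 (adjusted p = 0.00983 and 0.0432 by edgeR). For 12 choroid plexus genes the low-Mn values were -0.20, -0.48 and -0.27 and the normal-Mn values 0.01, 0.12 and -0.15, and the summed CPM was 2333 to 2881 and 2706 to 3271. Of these 12, Kl, Ace, Mfrp and Sostdc1 passed, all lower, at -0.51, -0.37, -0.38 and -0.51 (adjusted p = 0.00183 to 0.0362 by edgeR). Low-Mn replicate 2 was thus the lowest library on all 3 lists by the median gene. This was not particular to them. It was also lowest on other lists, such as those of red blood cell genes (-0.49), complement genes (-0.26) and genes of activated microglia (-0.18). On the oligodendrocyte list low-Mn replicate 1 was the lowest, at -0.19. Low-Mn replicate 2 was also the shallowest library, with 14548336 expected counts. The part of meninges and choroid plexus in the macrophage values was not tested. A further 16 border macrophage genes, 9 of them counted well enough to test, had a median log2 fold change of -0.06, 6 below 0, and none passed. The closest to passing were the adaptor Dab2 at -0.17, the hyaluronan receptor Lyve1 at 0.53 and the lectin Clec10a at -0.50 (adjusted p = 0.632 to 0.730 from edgeR).

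**Figure D3:**
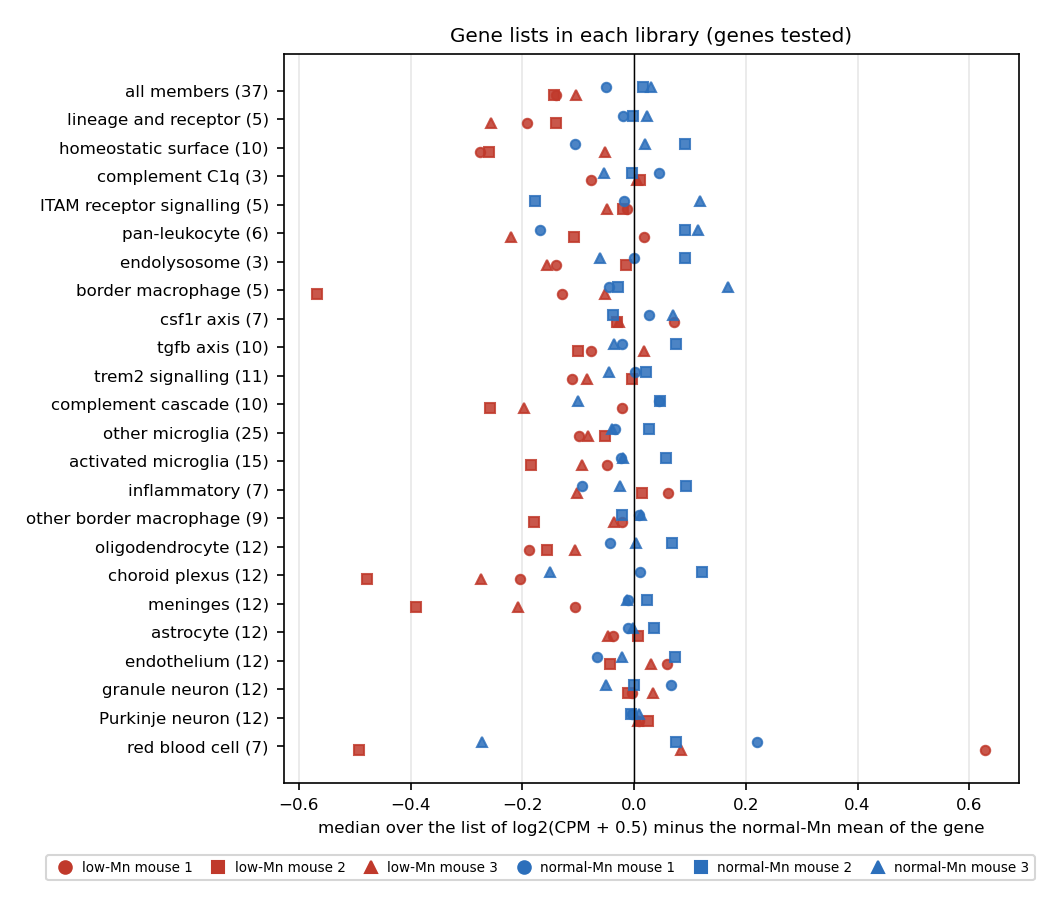
For each list, points give the median over its tested genes of the difference in log2(CPM + 0.5) from the mean of the normal-Mn mice. Red points are low-Mn and blue points normal-Mn libraries, with 1 shape per replicate number. Low-Mn replicate 2 (red square) lies lowest on the border macrophage, meninges and choroid plexus lists and on several others. The red points of all 37 members (-0.14 to -0.10) lie left of the blue ones (-0.05 to 0.03).

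Levels of different genes were compared per length, as CPM per kilobase of annotated exon. On the normal-Mn diet C1qa stood first at 20.0 ± 0.833 (SD, n = 3 mice), followed by Ctss at 18.4 ± 0.431 and C1qb at 16.6 ± 0.409, and these 3 did not overlap each other. C1qc followed at 8.04 ± 0.937 and Tyrobp at 7.56 ± 1.51, which overlapped, then Lyz2 at 6.79 ± 0.572, Csf1r at 6.06 ± 0.0842 and P2ry12 at 4.15 ± 0.408. Together C1qa, C1qb, C1qc and Ctss made up 47.4% of the level per kilobase of the 37 genes. At the low end were Cd163 at 0.270 ± 0.0517, Slc2a5 at 0.236 ± 0.0256 and Ptprc at 0.118 ± 0.0193, and Ptprc has 18313 bases of annotated exon, so that its level per kilobase depends on which of these exons are used. Of the 36 pairs of neighbours in this order, 28 overlapped in the range of their 3 mice. Microglial genes thus spanned a wide range of levels within 1 tissue, and the genes for lineage factors, Spi1 at 0.531 and Irf8 at 0.354, lay near its foot. The limit given for Ptprc holds for other genes with much annotated exon, such as Irf8 with 7055 bases, Inpp5d with 7602 and Csf1r with 5774. By normal-Mn mean CPM without length, Csf1r at 35.0 stood above Ctss at 25.0 and C1qa at 20.8. On that measure Irf8 at 2.50 stood above Fcer1g at 2.20, while Spi1 stood at 1.43.

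**Figure D4:**
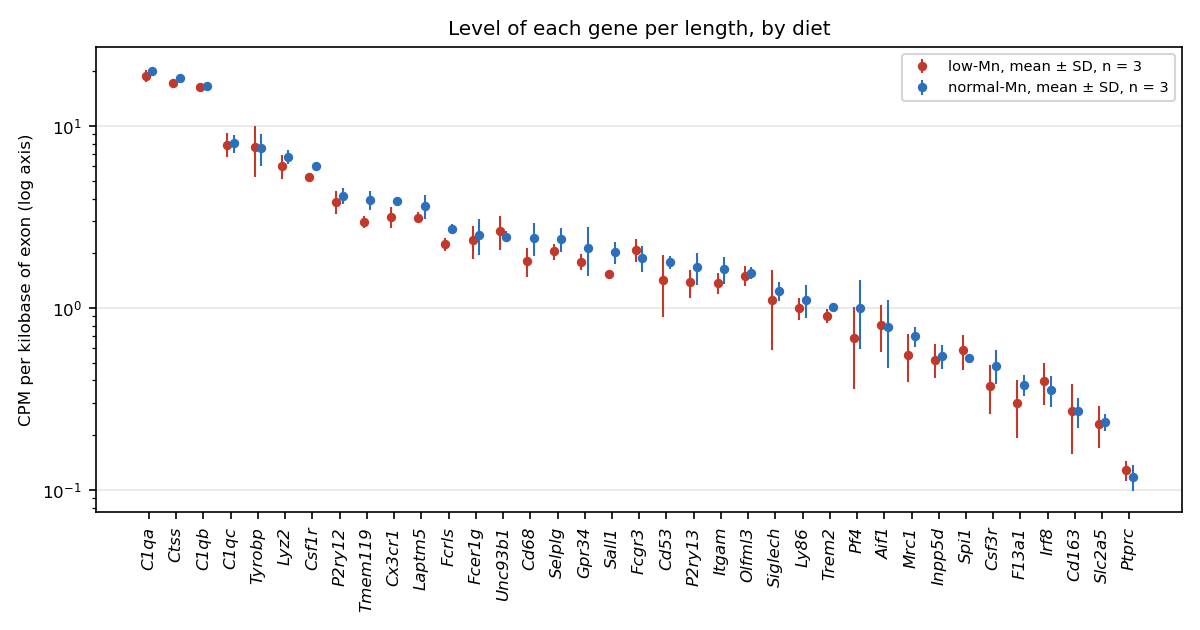
CPM per kilobase of exon on a log axis, as mean ± SD of 3 low-Mn (red) and 3 normal-Mn (blue) mice, with genes in order of the normal-Mn mean. The order runs from C1qa at 20.0 to Ptprc at 0.118, and most error bars of the diets overlap.

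Other genes of the same pathways were counted from lists, and none passed in any of them. Of the ligands and partners of CSF1R and CX3CR1, 7 were tested with a median log2 fold change of 0.0033. Fractalkine itself, Cx3cl1, had -0.15 (adjusted p = 0.318 from edgeR), the growth factor Csf1 0.06 and the cytokine receptor Flt3 0.09. Of 10 genes of the TGF-β axis, 9 were below 0 with a median of -0.08, led by Itgb8, which activates TGF-β, at -0.16 and the signal carrier Smad3 at -0.15, with the integrin Itgav at -0.07 (adjusted p = 0.299 to 0.681 from edgeR). Among 11 tested genes around TREM2 the median was -0.09. Clu, a lipid carrier of astrocytes, had -0.14, the protease Adam17 0.25 and Apoe, the main lipid carrier of the brain, -0.09 (adjusted p = 0.166 to 0.434 from edgeR). Other complement genes had a median of -0.21 over 10 tested, 7 below 0, with C4b at -0.38 and the inhibitor Cd55 at -0.32 (adjusted p = 0.233 and 0.510 from edgeR).

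A second list, of other microglial genes, had 25 tested, 21 of them below 0, and a median log2 fold change of -0.11. Of the 25, 2 had an unadjusted p under 0.05 in edgeR. These were Lpcat2, an enzyme of platelet-activating factor synthesis, at -0.39 and the tetraspanin Cd81, which many cells of the brain make, at -0.11 (adjusted p = 0.331 and 0.348 from edgeR). Next came Hpgds, a prostaglandin D synthase, at -0.68 (adjusted p = 0.428 from edgeR). Some genes of this second list had a mean CPM far above that of any member, such as Sparc at 949 in low-Mn and 999 in normal-Mn mice. The part of other cell types in its values was not tested. Of 15 tested genes that activated microglia raise, 11 were below 0 with a median of -0.16. Spp1, the secreted protein osteopontin, had -0.40, the receptor tyrosine kinase Axl -0.20 and the ferritin chain Fth1 -0.13 (adjusted p = 0.118 to 0.201 from edgeR), all 3 being made by other brain cells as well. Of 17 inflammatory genes only 7 passed the filter on low counts, 4 of them below 0. Nfkbia, the inhibitor of NF-κB, had 0.40, Nos2, the inducible nitric oxide synthase, -1.56 and Ptgs2, a cyclooxygenase, -1.01 (adjusted p = 0.105 to 0.420 from edgeR). Nos2 and Ptgs2 were low, with a mean CPM of 0.280 and 0.476 in low-Mn and 0.813 and 0.969 in normal-Mn mice. Their standard errors were 0.547 and 0.490. Il10 had no counts in any library, which allows up to 3 counts in each. The chemokines Ccl3 and Ccl4, named after their values were seen, did not pass the filter on low counts and were not tested. Ccl3 had a CPM of 0.116, 0 and 0.247 in the low-Mn mice and 0.0936, 3.33 and 1.90 in the normal-Mn mice, and Ccl4 0.0581, 0.137 and 0 against 0.0468, 2.57 and 1.52. Both were high in normal-Mn replicates 2 and 3 and near 0 in replicate 1, which lay with the low-Mn mice. Lymphocyte markers added up to a CPM of 1.37 to 2.84 over the 6 libraries, with the diets overlapping, and 1 of 12 had enough counts to test.

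The size of change that would have passed was smaller for genes of higher level. The 8 members with a mean CPM of at least 10 had standard errors of the log2 fold change from 0.070 to 0.137, at which a change of 1.24-fold to 1.52-fold would have passed. For the 9 members between 5 and 10 it was 1.52-fold to 1.99-fold, and for the 20 members below 5 it was 1.75-fold to 4.67-fold. The plot of standard error against level shows the members along the same band as all other genes. The difference measured for Csf1r, to 86.2% of the normal-Mn mean, was below the size that would have passed at its standard error. That holds by definition for any gene that did not pass.

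**Figure D5:**
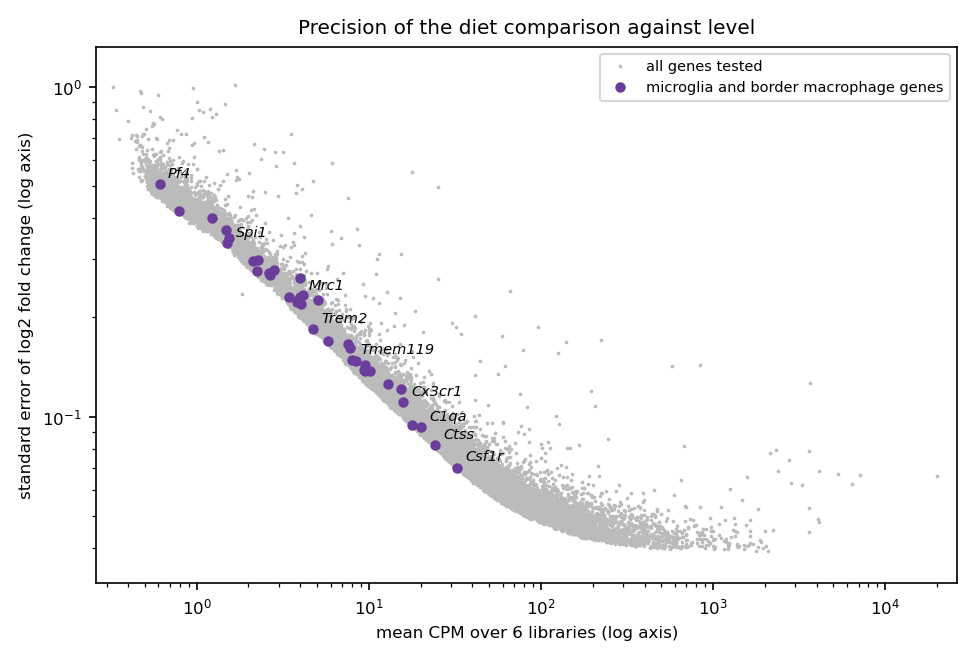
Standard error of the log2 fold change against mean CPM over 6 libraries, both on log axes, for the 37 genes (purple) and all 16123 genes tested (gray). The members run from Csf1r, with a standard error of 0.0701, to Pf4, with 0.507.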

How the data were processed

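RNA-seq data of 6 cerebella were analysed, 3 per diet, grouped by the sample titles. The authors aligned the reads with STAR and deposited expected counts from RSEM, without normalization (mm10, per the labels). The sources used here give neither tool versions nor the annotation release. The 92 spike-in entries held 0 counts and were left out. Expected counts were rounded, kept by filterByExpr (minimum count 10, minimum total 15), scaled by TMM and tested with glmQLFit and glmQLFTest of edgeR 4.0.16 (limma 3.58.1, DESeq2 1.42.0, R 4.3.3, Python 3.11.15, matplotlib 3.10.9), with Benjamini-Hochberg adjustment over 16123 genes. The scripts were tested on simulated counts. Standard errors of the edgeR fits are the absolute log2 fold change over the square root of F. Shared sequence was measured over 50-mers. Libraries of the same diet, each from 1 mouse, differed beyond sampling noise (chi-square per degree of freedom 3.57 to 7.56).

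The members, lists and tests were chosen with earlier results of these data known. All members are named. Values per library are given for the 8 smallest p, for 9 genes picked by role and for the macrophage genes, and, for each other list, every gene that passed or up to 3 with the smallest p. Of the genes this rule names, 2 are not reported here. Alternatives were other scaling factors, filters, tools, unrounded counts, a length and GC trend (splines with 4 degrees of freedom), the replicate block and each library left out.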

Additional observations from a re-analysis of the deposited data

How the results depend on the processing

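None of the 37 genes, where tested, passed under any of 16 alternatives, which include both DESeq2 fits, limma-voom, no filter and each library left out, and from 3 to 6 had an unadjusted p under 0.05, always lower on the low-Mn diet. DESeq2 without independent filtering was added after the data had been seen, because the default left 36 of the 37 without an adjusted p. The median log2 fold change of the members stayed below 0, with -0.19 where genes needed a mean of at least 100 counts (16 members) and from -0.19 to -0.11 with 1 library left out, the last without normal-Mn replicate 2. The all-gene count of 96 became 424 with no filter, 63 with limma-voom, 166 with a length and GC trend removed, and from 37 to 93 with 1 library left out, 47, 37 and 45 of these without low-Mn replicates 1 or 2 and normal-Mn replicate 2.

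Replicate numbers did not pair the diets (correlation of deviations 0.030, -0.024 and 0.036 for the 3 numbers). With the number as a block, 128 genes and none of the 37 passed, and the median was -0.15.

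The sign turned in 14 genes, all within 0.167 of 0 as measured. Cd163 became -0.034 with limma-voom and -0.038 with the block, and Tyrobp -0.024 and -0.0042. With 1 library left out, the log2 fold change ran from -0.28 to 0.29 for Cd163, from -0.22 to 0.23 for Tyrobp, from -0.22 to 0.36 for Aif1, from -0.029 to 0.29 for Spi1, from -0.061 to 0.32 for Irf8, from -0.086 to 0.22 for Unc93b1, from -0.0012 to 0.24 for Ptprc, from -0.22 to 0.080 for Inpp5d, from -0.16 to 0.011 for Olfml3, from -0.15 to 0.059 for C1qc, from -0.038 to 0.0084 for C1qb, from -0.16 to 0.16 for Slc2a5, from -0.59 to 0.086 for Siglech and from -0.23 to 0.11 for Fcer1g. The other 23 genes kept their sign, but in 17 of them leaving out 1 library moved the log2 fold change by more than 1.5 times, among them Fcgr3 (0.019 to 0.24), Cd53 (-0.59 to -0.06), P2ry12 (-0.23 to -0.02), F13a1 (-0.56 to -0.08), Ly86 (-0.31 to -0.05) and Mrc1 (-0.47 to -0.10). Within 1.5 times were 6, Csf1r, Sall1, Tmem119, Cx3cr1, Fcrls and Ctss. The cause was not tested. The 20 members under a mean CPM of 5 would have passed at changes of 1.75-fold to 4.67-fold, and the 8 of at least 10 had no call either.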
